A study of Mus musculus with 8 samples.

Results

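Layer 5 extratelencephalic (ET) projection neurons were examined as 56 nuclei, out of 18582 glutamatergic nuclei and 54343 cortical nuclei that passed quality control, in snRNA-seq of 8 mouse cortices. The nuclei were chosen by their own unique molecular identifier (UMI) counts, a UMI marking 1 captured RNA molecule. A nucleus was taken if it held at least 2 UMIs of *Slc17a7* (the vesicular glutamate transporter of cortical excitatory neurons), no more than 1 of *Gad1* plus *Gad2* (the enzymes of GABA synthesis), at least 2 of *Fezf2*, at least 3 of *Bcl11b*, at least 2 of *Pou3f1*, *Npr3* and *Fam84b* together, no more than 1 each of *Deptor* and *Foxp2*, and no more than 4 of *Tshz2*. Every nucleus also had to show 200 to 6000 genes, over 1000 UMIs and under 10% of UMIs from the mitochondrial genome. The levels of these 11 genes are given below as a description and were not tested.

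ET neurons are the large pyramidal cells of layer 5 whose axons leave the telencephalon for the thalamus, the midbrain, the pons and the spinal cord, whereas intratelencephalic (IT) neurons of the same layer project within the cortex and to the striatum, and corticothalamic (CT) neurons of layer 6 project to the thalamus. The transcription factor *Fezf2* specifies the ET fate in development and acts upstream of *Bcl11b* (also called Ctip2), which is needed for the outgrowth of the corticospinal axon. In the adult, ET neurons are known for thick-tufted apical dendrites and for long, neurofilament-rich axons.

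The mice were 4 wild-type (Wt) and 4 *Ifnar1*-/- animals, the latter lacking the first subunit of the type I interferon receptor in every cell of the body, and the comparison asks what that loss changes in the cortex. Each genotype comprised 2 females and 2 males, all 6 weeks old and untreated, and the *Ifnar1*-/- line had been backcrossed onto C57BL/6J, the strain of the Wt mice. Each library came from the frozen cortex of 1 mouse, so that the mouse was the replicate (Wt F1, F2, M1 and M2 and *Ifnar1*-/- F1, F2, M1 and M2, with F for female and M for male). A constitutive knockout carries the deletion in glia and in all neurons, so effects within ET neurons and effects from other cells cannot be told apart in it.

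ET nuclei were few in every library. Wt F1 held 10, Wt F2 held 3, Wt M1 held 3 and Wt M2 held 11, while *Ifnar1*-/- F1 held 1, F2 held 4, M1 held 15 and M2 held 9. Together they carried 911287 UMIs, from 8456 in *Ifnar1*-/- F1 to 212344 in *Ifnar1*-/- M1. *Ifnar1*-/- F1 therefore stands apart, since 1 UMI of its single nucleus equals 118 CPM (counts per 1000000 UMIs of the nuclei summed). A median ET nucleus had 15755 UMIs (8456 to 29435) and 4720.5 detected genes (3177 to 5929), against a median of 9776 UMIs in the 18526 other glutamatergic nuclei. Of the ET nuclei 1 was marked as a doublet by Scrublet, and 1 shared its barcode with a nucleus of another library, out of 352 barcodes that occurred in more than 1 library.

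**Figure D1:**
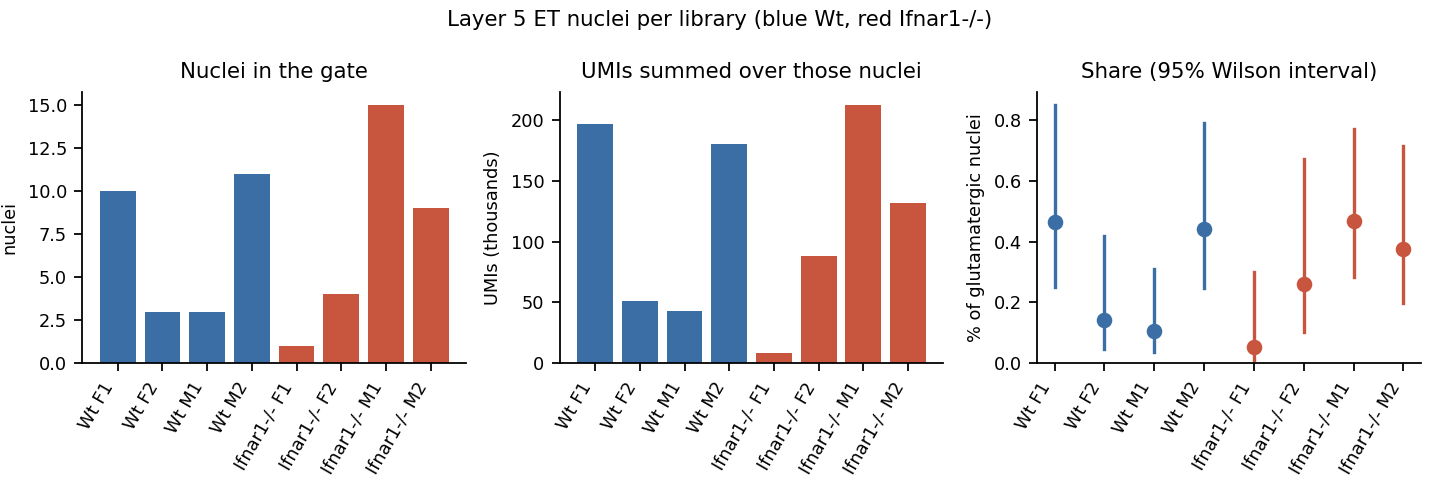
Number of layer 5 ET nuclei, UMIs summed over them (in units of 1000) and their share of glutamatergic nuclei (%, points with 95% Wilson intervals, counting error only) in each of the 8 libraries, blue for Wt and red for *Ifnar1*-/-. The libraries range from 1 to 15 nuclei, and both genotypes hold libraries with a low and with a high share.

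The share of ET nuclei among glutamatergic nuclei did not differ between genotypes by more than the spread between mice. Their share was 0.463%, 0.143%, 0.106% and 0.441% in Wt F1, F2, M1 and M2, and 0.0534%, 0.262%, 0.467% and 0.377% in *Ifnar1*-/- F1, F2, M1 and M2. The genotypes overlapped over nearly their whole range. Wt averaged 0.288% ± 0.190 and *Ifnar1*-/- 0.290% ± 0.179 (SD, n = 4 each), a difference of 0.00156 percentage points (exact permutation test, two-sided, p = 0.971, where 4 against 4 cannot go below 0.0286). The 95% Wilson interval of the share reached from 0.252% to 0.851% in Wt F1 and from 0.00943% to 0.302% in *Ifnar1*-/- F1. With nuclei thinned to 8000 UMIs and shallower ones left out, which leaves 0 or 1 ET nucleus per library, the shares were 0.0545% ± 0.0377 in Wt and 0.0941% ± 0.115 in *Ifnar1*-/- (SD, n = 4 each, exact permutation test, p = 0.800). Because the gate counts raw UMIs, the share alone cannot tell fewer ET nuclei from fewer UMIs per nucleus.

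The gate rested on few UMIs per nucleus. *Fezf2* had a median of 2 UMIs per ET nucleus and at most 5, and *Bcl11b* a median of 7 (3 to 14). *Npr3*, a clearance receptor of natriuretic peptides, was detected in 50 of the 56 nuclei, *Pou3f1*, a POU-domain transcription factor of subcerebral neurons, in 24 and *Fam84b* in 14. Summed over libraries, *Fezf2* stood at 144.8 CPM in ET nuclei against 12.7 in the other glutamatergic nuclei, *Bcl11b* at 413.7 against 122.1, *Npr3* at 125.1 against 14.6 and *Pou3f1* at 36.2 against 3.87. At the thresholds themselves, 39 ET nuclei held exactly 2 UMIs of *Fezf2* and 74 nuclei that met every other condition held 1. For *Bcl11b* 11 nuclei lay just inside at 3 UMIs and 8 just outside at 2, for the sum of *Pou3f1*, *Npr3* and *Fam84b* 26 lay inside at 2 and 29 outside at 1, and for *Foxp2* 12 lay inside at 1 and 9 outside at 2. The limit on *Fezf2* thus set aside more nuclei than were taken.

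Outside the gate, 24 genes known as ET markers were followed, and all 24 had at least 1 UMI in the ET nuclei. Each ET nucleus carried UMIs of 5 to 15 of them (median 11). Their summed level was 3429.5 to 5991.4 CPM over the 8 libraries, above the 1889.3 to 2326.9 CPM of the other glutamatergic nuclei in every library. For tests, UMIs were summed per library over ET nuclei and over all other glutamatergic nuclei of that library, and compared with edgeR's quasi-likelihood test with the library as a block. Of 13783 genes tested 353 were higher in ET nuclei at a Benjamini-Hochberg adjusted p under 0.05 (2.56%) and 1264 were lower (9.17%). Without scaling by trimmed mean of M-values (TMM) the calls divided into 585 higher and 933 lower. The median gene tested lay at a log2 fold change of -0.24 in this comparison, and log2 fold changes below are given relative to the median gene. Because the gate took nuclei by genes that vary together with many others, these tests describe the nuclei that it took. Of the 22 ET markers tested 13 were higher and 2 lower, at a list median of 1.08 (0 over all genes tested), and both counts were the same without TMM scaling.

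*Parm1*, a membrane glycoprotein, was measured at 113 CPM in the lowest ET library, 193 in the median one and 261 in the highest, against 32.5, 41.0 and 56.1 in the other glutamatergic nuclei, so that the sets did not overlap. Its log2 fold change was 2.20 (SE 0.17, adjusted p = 1.80e-27, edgeR's quasi-likelihood test), and 50 of 56 ET nuclei held at least 1 UMI. *Tox*, an HMG-box nuclear factor, ran from 328 CPM over a median of 744 to 995 in ET nuclei and from 191 over 231 to 258 elsewhere, again without overlap (1.77, SE 0.15). *Cntn6*, a contactin adhesion molecule, stood at 237, 489 and 1018 CPM in its lowest, median and highest ET library and at 188, 218 and 269 in the others (1.41, SE 0.15), the ET value being above the other one in 7 of 8 libraries. *Ldb2*, a LIM-domain binding cofactor, and *Sox5*, a transcription factor that times the birth of deep-layer neurons, were detected in 56 and 55 nuclei and were higher by 1.25 and 1.07. *Vat1l* (2.12), *Bcl6* (2.08), a transcriptional repressor, *Stac* (2.35), an adaptor of calcium channels, *Crym* (1.14), a thyroid hormone binding protein, *Etv1* (1.08), an ETS factor of layer 5, and *Cdh13* (0.84), a cadherin, were higher too, although each of these but *Etv1* had 0 UMIs in at least 1 library. The calls of *Crym* and *Cdh13* were lost without *Ifnar1*-/- M1. With a stricter gate, which left 8 nuclei, *Cntn6*, *Ldb2*, *Sox5*, *Bcl6*, *Stac*, *Crym*, *Etv1* and *Cdh13* lost their calls. *Parm1*, *Tox* and *Vat1l* kept theirs there. *Nefh*, the heavy neurofilament subunit, was higher by 2.05 on 10 UMIs (SE 0.51, adjusted p = 0.0135, edgeR), a call that was lost without *Ifnar1*-/- M2 (adjusted p = 0.214) and in the 4 libraries with 9 or more ET nuclei (adjusted p = 0.0953, edgeR).

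The 2 ET markers that were lower had almost no UMIs. *Bmpr1b*, a BMP receptor, had 2 UMIs in ET nuclei, a ratio of 0.0346 to the other glutamatergic nuclei (95% interval 0.00419 to 0.125), and *Arhgap25* had 1, a ratio of 0.0572 (0.00145 to 0.319). These intervals, like all those of counts and shares here, cover counting error only. *Pcp4*, a calmodulin-binding peptide listed for these neurons, had 32 UMIs and a log2 fold change of 0.52 that did not pass (SE 0.31, adjusted p = 0.656, edgeR). *Otx1*, *S100a10* and *C1ql2* had 1 UMI each, *Opn3* had 5 and *Diaph3* had 9.

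The rule for the genes of the largest difference, among those past the test with at least 20 CPM in ET nuclei, brought out mostly low-count genes and long noncoding RNAs. *Gm2164* had 405 UMIs in 54 of 56 ET nuclei and ran from 117 CPM over 445 to 591, against 43.1, 58.9 and 74.0 in the other glutamatergic nuclei (log2 fold change 2.90, SE 0.15, adjusted p = 6.10e-69, edgeR). The gene is annotated as antisense (GRCm38, chr4:124528924-124657169, minus strand) and overlaps the start of *Pou3f1* (chr4:124656807-124660655, plus strand), a gate gene, so it is not independent of the gate by position. *Gm19410*, on chromosome 8 from 35765790 to 35818047, ran from 211 CPM over 315 to 591 against 46.5, 51.2 and 62.0 (2.64, SE 0.15), and 53 nuclei held it. The other 10 were *Gm13211* (3.53), *Gm42707* (2.98), *Gprc5b* (2.94), an orphan G protein-coupled receptor, *Tcerg1l* (2.93), *Erg* (2.90), an ETS factor, *Gm44593* (2.76), *Gm42705* (2.70), *Adam18* (2.66), *Cxcl12* (2.65), a chemokine, and *Npnt* (2.61), an extracellular matrix protein. Those 10 had 27 to 122 UMIs in all, and all of them but *Gprc5b* were at 0 in at least 1 library.

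At the other end of the same rule stood genes with high levels elsewhere, as its floor of 20 CPM in ET nuclei requires. Genes below that floor were left out. *Prkg1*, the cGMP-dependent protein kinase I, had 29 UMIs in 17 ET nuclei and ran from 0 CPM over 23.9 to 117, against 672, 750 and 808 in the other glutamatergic nuclei. The gap was wide in every library, with a log2 fold change of -4.43 (SE 0.25, adjusted p = 4.16e-75, edgeR's quasi-likelihood test). *Hs3st4*, a heparan sulfate sulfotransferase of layer 6, ran from 0 over 44.0 to 235 CPM against 855, 920 and 1119 (-4.01, SE 0.23). *Unc5d*, a netrin receptor, fell from a median of 733 CPM elsewhere to 52.0 in ET nuclei (-3.40), and *Il1rapl2*, an adhesion protein of the interleukin-1 receptor family, from 568 to 69.7 (-3.06). Low levels of *Unc5d* and *Il1rapl2* were not particular to ET nuclei. Layer 6 CT-gated nuclei, described below, had 52.7 to 133 CPM of *Unc5d* and 86.4 to 173 CPM of *Il1rapl2*. *Thsd7b* (-3.27), *Kcnc2* (-3.15), *Thsd7a* (-2.94) and *Limch1* (-2.62) had 19 to 24 UMIs each in ET nuclei.

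**Figure D2:**
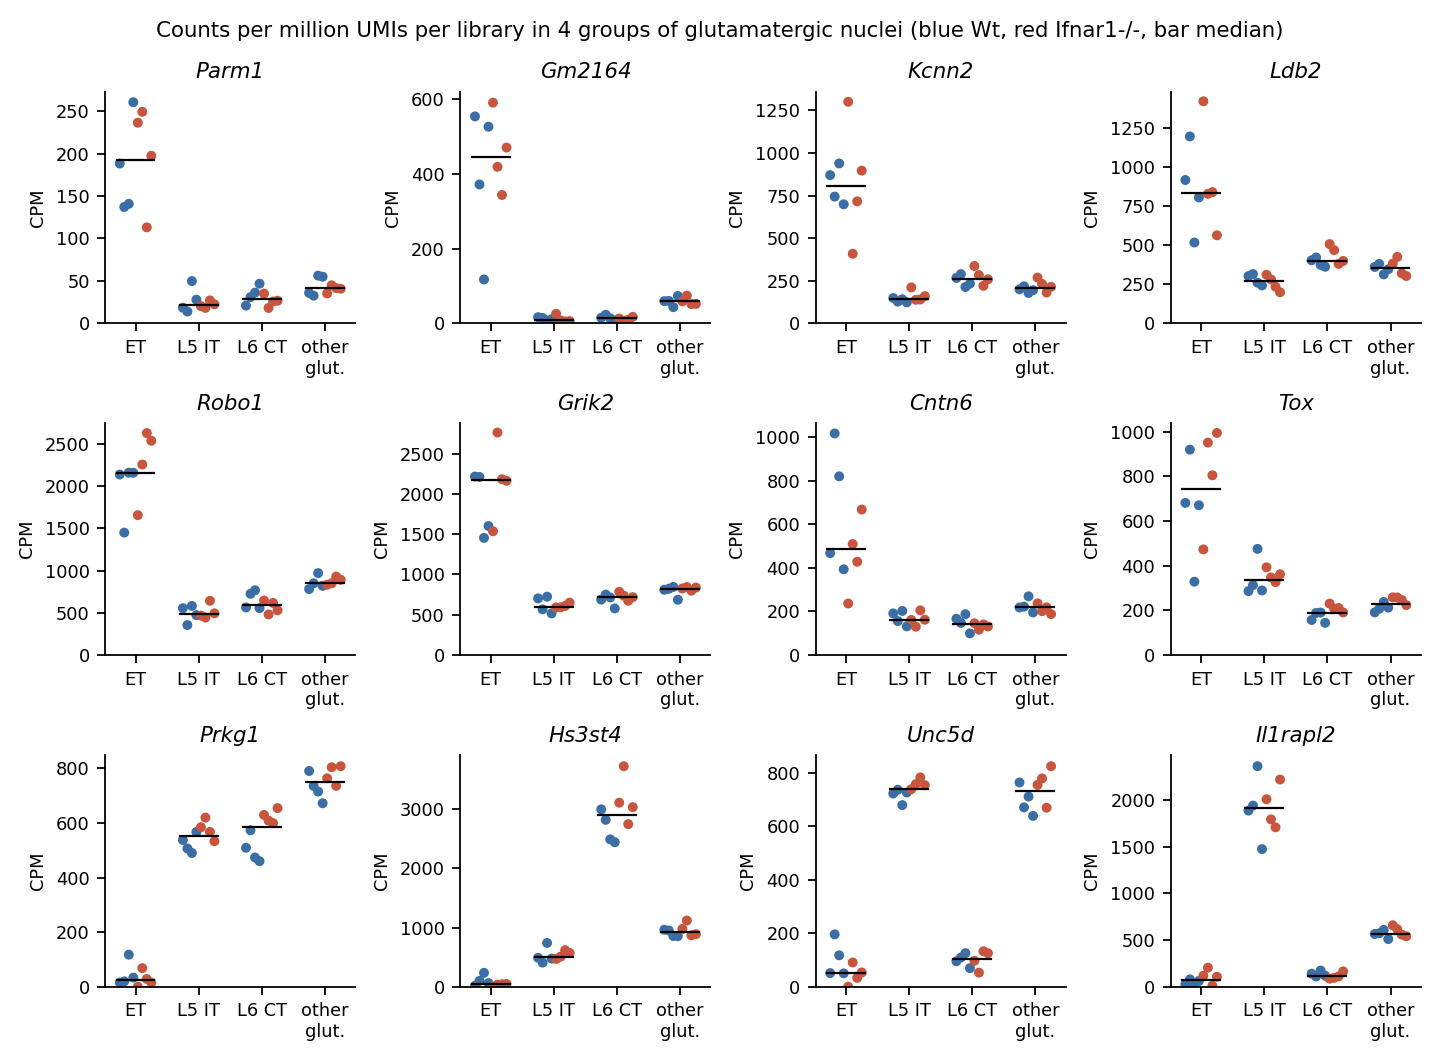
CPM per library (linear axis from 0, points, blue Wt and red *Ifnar1*-/-, bar at the median) of 12 genes in layer 5 ET, layer 5 IT-gated, layer 6 CT-gated and all other glutamatergic nuclei. *Parm1*, *Gm2164* and *Kcnn2* are higher in ET nuclei than in each other set, whereas *Prkg1* has a median of 23.9 CPM in ET nuclei against 552, 586 and 750 CPM in the other sets.

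ET nuclei were set against the classes nearest to them in depth of the cortex. Layer 5 IT-gated nuclei (1173) and layer 6 CT-gated nuclei (2066) came from the same 8 libraries. The former were chosen by at least 2 UMIs of *Deptor* and few of the ET genes. The latter were chosen by at least 4 UMIs of *Foxp2* and few of *Pou3f1*, *Npr3* and *Fam84b*. Against IT-gated nuclei 437 of 6589 genes were higher in ET nuclei (6.63%) and 639 lower (9.70%). Against CT-gated nuclei 581 of 7381 were higher (7.87%) and 703 lower (9.52%). *Parm1* was higher than in both, by a log2 fold change of 2.97 (SE 0.19) against IT and 2.76 (SE 0.19) against CT. *Cntn6* (1.73 and 2.04), *Ldb2* (1.62 and 1.03), *Tox* (1.14 and 2.05) and *Gm2164* (5.35 and 5.09) were higher too. Both sets were chosen for few UMIs of *Pou3f1*, which *Gm2164* overlaps, so the *Gm2164* values are not independent of the gates. *Etv1* separated ET from CT nuclei (2.86, SE 0.21, adjusted p = 1.80e-39) but was not called against IT (0.21, SE 0.18, adjusted p = 0.611, edgeR). *Arhgap25* and *Bmpr1b* were lower against CT nuclei, as was *Ephb6* (-0.97).

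Markers of the other glutamatergic classes were low in ET nuclei. The gate itself limited *Foxp2*, *Deptor* and *Tshz2*, and CT-gated nuclei were chosen by *Foxp2*, so these levels are not independent of the gates. *Cux2*, a homeobox factor of the upper layers, had 1 UMI, a ratio of 0.00814 to the other glutamatergic nuclei (95% interval 0.000206 to 0.0454). Of 6 tested markers of layer 2/3 and layer 4 IT neurons 5 were lower and 0 higher, among them *Rorb* (-2.59, SE 0.26), a nuclear receptor of layer 4. Of 6 tested markers of layer 6 CT neurons 5 were lower and 0 higher. *Syt6*, a synaptotagmin of CT neurons, had 0 UMIs in ET nuclei, which with a floor of 3 counts over all libraries is at least 8.15-fold lower than in the other glutamatergic nuclei and at least 48.2-fold lower than in CT-gated nuclei. *Tle4*, a corepressor of CT neurons, had a log2 fold change of -2.03 against the other glutamatergic nuclei (SE 0.25) and of -3.69 against CT-gated nuclei. Near-projecting markers were lower in 2 of 4 and layer 6b markers in 3 of 4 tested, with 0 higher in either list. Against the other glutamatergic nuclei 9.17% of all genes tested were lower and 2.56% higher.

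Layer 5 IT markers did not move together. *Il1rapl2* was lower against IT-gated nuclei by a log2 fold change of -4.85, while *Sulf2*, an extracellular sulfatase, was higher against them (0.79) and against the other glutamatergic nuclei (1.57, SE 0.17), running from 23.5 CPM over 220 to 355 against 64.5, 69.4 and 86.9. *Col6a1* was higher against IT-gated nuclei (2.13) and had 0.68 against the other glutamatergic nuclei (adjusted p = 0.289, edgeR). All 3 of these genes were tested in both comparisons.

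Ion channels that shape dendritic and axonal firing moved in both directions. Of 26 tested, 5 were higher and 9 lower against the other glutamatergic nuclei (7 and 7 without TMM scaling), and the median of the list was 0.15. Over all genes tested 2.56% were higher and 9.17% lower, before the median gene is subtracted. *Kcnn2*, a small-conductance calcium-activated potassium channel, was found in all 56 ET nuclei and ran from 408 CPM over 807 to 1301, against 178, 207 and 268. No library of either set reached the other. The log2 fold change was 1.92 (SE 0.15, adjusted p = 1.08e-27, edgeR's quasi-likelihood test), with 2.38 against IT-gated and 1.60 against CT-gated nuclei. *Scn1a*, a sodium channel of the axon initial segment, was higher by 1.02 (SE 0.15), and *Cacna1h*, a T-type calcium channel (1.61, 55 UMIs), and *Scn4b*, a sodium channel beta subunit (1.60, 19 UMIs), were higher on fewer counts. The call of *Scn4b* was lost in the libraries with 9 or more ET nuclei.

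Lower were *Kcnc2* and *Kcnc1* (-1.65, SE 0.34), which encode fast Kv3 potassium channels, and *Kcnd3* (-0.62), an A-type potassium channel. *Cacna1c*, an L-type calcium channel, fell to a log2 fold change of -0.69 (SE 0.16, adjusted p = 4.15e-07, edgeR), with 237 to 540 CPM in ET nuclei and 536 to 687 elsewhere. The remaining 5 lower calls, *Cacna1a*, *Cacna1b*, *Cacna1d*, *Kcnma1* and *Kcnq3*, lay between -0.22 and -0.37 relative to the median gene, close to the shift of that gene itself. Of these, *Kcnma1* kept its call in all 19 alternative settings, whereas DESeq2 called none of the other 4. Relative to the median gene, the *Kcnma1* value ran from -0.51 to -0.0031 over those settings. The test is on the log2 fold change before the median gene is subtracted. A kept call therefore does not by itself show a level below the median gene. *Cacna1a* lost its call in 11 of the 19, including without each of 5 libraries, *Cacna1d* in 7, *Cacna1b* in 6 and *Kcnq3* in 4, each of these 3 including without each of 2 libraries (*Ifnar1*-/- M1 and M2 for *Cacna1d*, Wt M2 and *Ifnar1*-/- M1 for *Cacna1b*, Wt M2 and *Ifnar1*-/- M2 for *Kcnq3*). *Kcnq5*, a subunit of the M-type potassium current, did not pass against the other glutamatergic nuclei (0.26, adjusted p = 0.965) or against IT-gated nuclei (-0.07, adjusted p = 0.774), and was higher by 1.78 against CT-gated ones (SE 0.15, adjusted p = 9.89e-28, edgeR).

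Receptors for axon guidance cues divided in the same way, with 4 of 24 tested higher and 9 lower (7 and 8 without TMM scaling) and a median of 0.22. The shares over all genes tested were 2.56% higher and 9.17% lower. *Robo1*, a receptor of Slit repellents, was found in all 56 ET nuclei and ran from 1449 CPM over 2158 to 2628, against 780, 849 and 970, with no overlap (1.30, SE 0.15, adjusted p = 2.22e-10, edgeR's quasi-likelihood test). Its close relative *Robo2* had 0.31 and did not pass (adjusted p = 0.851). Among the netrin receptors, *Unc5c* was higher (0.77, SE 0.15), most of all against CT-gated nuclei (2.90), *Unc5b* was called higher on 10 UMIs, and *Unc5d* was lower. The call of *Unc5c* was lost without *Ifnar1*-/- F2. That of *Unc5b* was lost in 8 of 18 settings, among them DESeq2, the looser gate and without Wt F1, Wt F2, *Ifnar1*-/- M1 or *Ifnar1*-/- M2, and its direction turned in the stricter gate. *Nrp1*, a semaphorin receptor, was higher against the other glutamatergic nuclei (0.84) and against IT (2.18) but lower against CT (-0.68). The call of *Nrp1* against the other glutamatergic nuclei was lost without Wt M2 and with limma voom. Its paralog *Nrp2* was lower against all 3, by -2.20, -1.84 and -1.62.

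The remaining lower guidance genes were *Gfra2* (-2.45), a coreceptor of GDNF-family ligands, *Fzd3* (-1.09), a Wnt receptor, *Plxna4* (-0.57), *Epha4* (-0.57) and *Igf1r* (-0.37), together with *Plxnd1*, which had 2 UMIs and a ratio of 0.0797 (95% interval 0.00965 to 0.288), and *Dcc*. *Dcc*, the attractive netrin receptor, was lower on average (-2.56, SE 0.64, adjusted p = 0.0322, edgeR) but uneven among ET nuclei. It had 100 UMIs in 20 nuclei, and 3 of them held 72% of the UMIs. The *Dcc* call was lost in 8 of 19 settings, among them no TMM scaling, nuclei over 10000 UMIs and without Wt F1, Wt F2, Wt M2, *Ifnar1*-/- F1 or *Ifnar1*-/- M2 (adjusted p up to 0.0939, edgeR), while its value stayed between -4.93 and -2.20. *Igf1r* lost its call without *Ifnar1*-/- M1, with DESeq2 and with limma voom.

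Glutamate receptor genes gave 2 higher and 7 lower of 21 tested (6 and 7 without TMM scaling), with a median of 0.23. Among all genes tested 2.56% were higher and 9.17% lower. *Grik2*, a kainate receptor subunit, ran from 1455 CPM over 2175 to 2765 in ET nuclei against 686, 825 and 846 elsewhere. Every ET library lay above every other one (1.32, SE 0.15, adjusted p = 7.16e-11, edgeR), and the difference was 1.66 against IT-gated and 1.52 against CT-gated nuclei. Its relatives went the other way, with *Grik3* (-0.999), *Grik4* (-0.79) and *Grik5* (-0.41) lower, and *Grik1* had 3 UMIs, a ratio of 0.0320 (95% interval 0.00660 to 0.0935). Among AMPA receptor subunits *Gria3* was higher (0.83, SE 0.15) and *Gria4* lower (-1.56, SE 0.17), with 196 to 499 CPM in ET nuclei and 832 to 996 in the others. *Grm3*, a metabotropic receptor coupled to inhibition of cAMP, was lower (-1.72, SE 0.20), and *Grm7* was called lower at -0.30. Calls were lost without *Ifnar1*-/- M1 for *Gria3*, without Wt F2 or with DESeq2 for *Grik5*, and without Wt F2 or *Ifnar1*-/- M2 for *Grm7*. The NMDA receptor genes *Grin1*, *Grin2a* and *Grin2b* lay between -0.04 and 0.33 and did not pass.

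**Figure D3:**
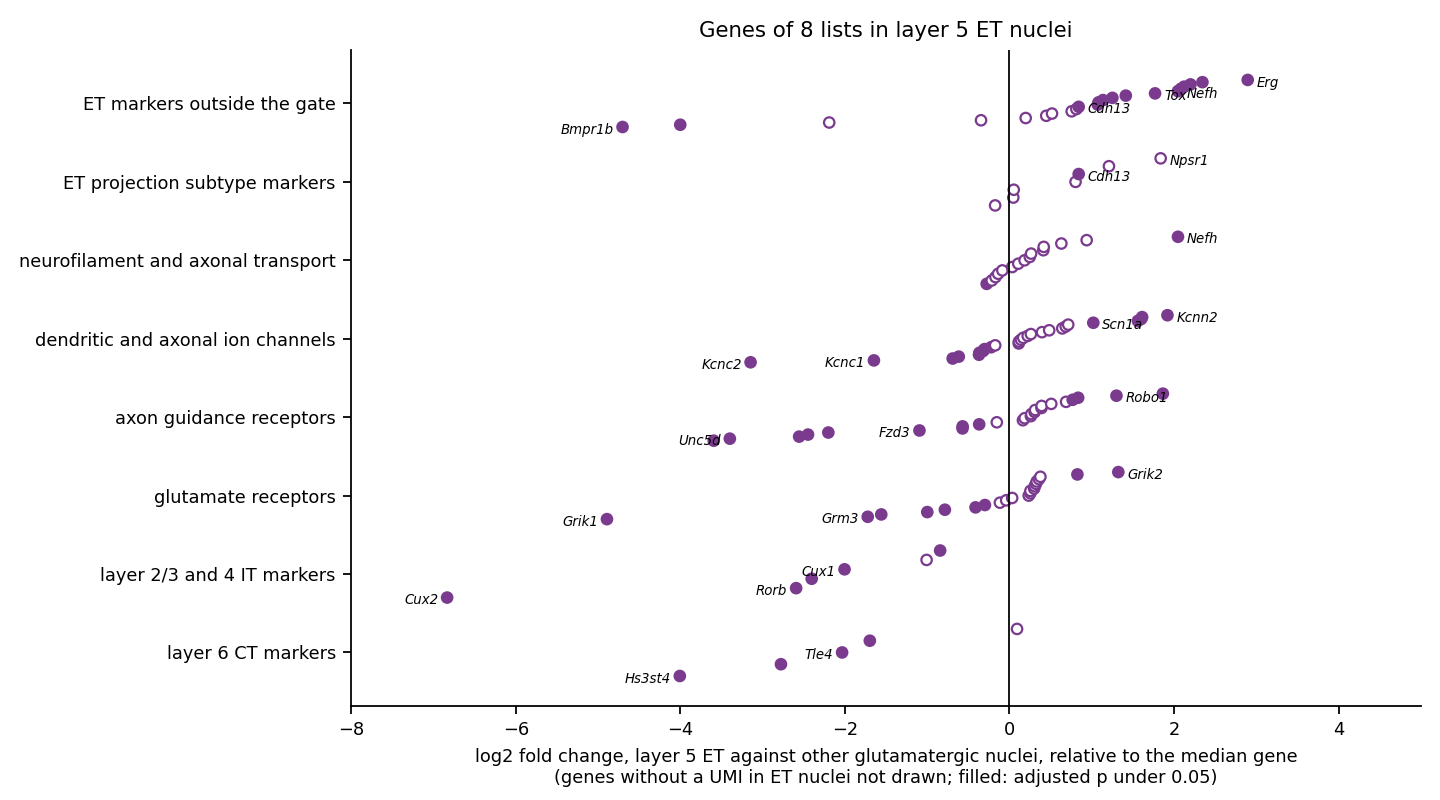
Log2 fold change of layer 5 ET against the other glutamatergic nuclei, relative to the median gene, for each tested gene of 8 lists (1 row of points per list, filled where the adjusted p was under 0.05 in edgeR's test). The ET markers lie mostly to the right of 0, the layer 2/3 and 4 IT and the layer 6 CT markers to the left, and the channel, guidance and receptor lists spread to both sides.

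Neurofilament and transport genes were largely level. Of 15 tested *Nefh* was higher and *Kif5c*, a kinesin motor, was called lower at -0.28, a call that held in 3 of 19 alternative settings. Without TMM scaling 2 were higher and 0 lower. *Nefm*, the medium neurofilament subunit, had 0.94 against the other glutamatergic nuclei (adjusted p = 0.104) and was higher against IT-gated nuclei (0.91, adjusted p = 0.0277, edgeR). *Ina*, alpha-internexin, had 0.63 (adjusted p = 0.376) and 0.87 against IT (adjusted p = 0.0152, edgeR). The genes *Prph*, *Spp1* and *Sncg* of the list had 0 UMIs.

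ET nuclei differed among themselves in the markers of projection subtypes. *Slco2a1*, a prostaglandin transporter, had 9 UMIs in 9 nuclei, and *Hpgd*, a prostaglandin dehydrogenase, 7 UMIs in 5. Both were found together in 1 nucleus. *Npsr1*, the neuropeptide S receptor, was concentrated in 12 nuclei with 107 UMIs, up to 32 in a single nucleus, from 5 Wt and 7 *Ifnar1*-/- nuclei in 7 libraries. Its log2 fold change of 1.84 did not pass the test (SE 0.57, adjusted p = 0.138, edgeR). *Erg*, an ET marker that is not on the subtype list, had 27 UMIs in 8 nuclei. *Chrna6* and *C1ql2* were each found in 1 nucleus and *Krt80* in 0. Of the 7 subtype markers tested, *Cdh13* was the higher call, and 0 were lower. With 56 nuclei and 0 to 2 UMIs per nucleus for most of these genes, no division into subtypes was made.

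RNA of other cell types was present at a low level. The summed level of 8 oligodendrocyte markers was 78.3 to 277 CPM in Wt and 118 to 570 CPM in *Ifnar1*-/- ET nuclei, against 158 to 422 CPM in the other glutamatergic nuclei. Of these 8, 1 was higher, *Mbp* (0.89), and 1 lower against the other glutamatergic nuclei. The 7 microglia markers summed to 66.5 to 157 CPM in Wt and 0 to 250 CPM in *Ifnar1*-/-, with 0 of 7 called. In *Ifnar1*-/- M1 45 of its 53 microglia marker UMIs lay in 1 ET nucleus, which carried all 7 markers and was the nucleus marked as a doublet by Scrublet, while every other ET nucleus held at most 4. Without doublets 1599 genes were called against the other glutamatergic nuclei and the count between genotypes was 1. Of 7 astrocyte markers 4 were at 0 in ET nuclei, *Aqp4*, *Gja1*, *Gfap* and *Slc7a10*. Among 11 GABAergic markers *Dlx1* was at 0, and *Erbb4*, *Adarb2* and *Nxph1* were lower than in the other glutamatergic nuclei. *Lamp5*, listed there as a marker of an interneuron class, was higher in ET nuclei, at 0 to 216 CPM with a median of 121 against 35.2 to 63.2 with a median of 41.2 (1.75, SE 0.18, adjusted p = 7.32e-15, edgeR). It was found in 46 of 56 nuclei. The part of foreign RNA in these values was not tested.

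Between genotypes, 1 of 2007 genes tested in ET nuclei passed an adjusted p of 0.05 (0.0498%), with 72 at an unadjusted p under 0.05. The test was edgeR's quasi-likelihood test on UMIs summed per mouse with sex as a covariate, and DESeq2 and limma voom each called 2. The mouse is the replicate here, and 4 libraries hold 4 nuclei or fewer, which limits what can be detected.

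*Ifnar1* itself, on chromosome 16 from 91485238 to 91507441, was too low to test in these nuclei. Wt F1, F2, M1 and M2 had 7, 2, 2 and 2 UMIs and *Ifnar1*-/- F1, F2, M1 and M2 had 0, 0, 2 and 3. In CPM this was 33.2 ± 15.5 (SD, n = 4) against 8.05 ± 10.8 (SD, n = 4), and with no filter on low counts the log2 fold change was -1.19 (adjusted p = 0.977, unadjusted p = 0.162, edgeR). Over all nuclei of a library *Ifnar1* stood at 16.2 to 20.01 CPM in Wt and at 14.0 to 16.9 CPM in *Ifnar1*-/-, so its UMIs do not by themselves separate the genotypes. Counts per gene do not show whether a UMI lies in the disrupted part of the transcript. The sex labels were matched by *Xist*, at 355 to 725 CPM in ET nuclei of the 4 female libraries and 0 in those of the 4 male ones.

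The gene called was *Gm43713*, annotated as antisense on GRCm38 chr3:88845025-88900001, minus strand, within *Gon4l*. Its UMIs were 14, 4, 1 and 6 in Wt F1, F2, M1 and M2 and 4, 16, 47 and 30 in *Ifnar1*-/- F1, F2, M1 and M2, or 71.2, 78.3, 23.5 and 33.3 CPM against 473, 181, 221 and 228 CPM. All 4 *Ifnar1*-/- libraries lay above all 4 Wt libraries. The means were 51.6 ± 27.2 CPM in Wt and 276 ± 133 CPM in *Ifnar1*-/- (SD, n = 4 each), and the log2 fold change was 2.15 (SE 0.38, adjusted p = 0.00914, edgeR's quasi-likelihood test). In the other glutamatergic nuclei it stood at 55.8 to 93.6 CPM in Wt and 214 to 254 CPM in *Ifnar1*-/-, and the genotype effect did not differ detectably between ET and the other nuclei (difference of log2 fold changes 0.39, SE 0.43, adjusted p = 1.00, edgeR). The call was lost without Wt M2 (adjusted p = 0.370), without *Ifnar1*-/- M1 (0.133) or without *Ifnar1*-/- M2 (0.0924) in the same edgeR test, with log2 fold changes of 1.87, 2.11 and 2.09. Within females alone the value was 1.61 (adjusted p = 0.995) and within males alone 2.81 (adjusted p = 0.0566, edgeR).

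*Gon4l*, a nuclear regulator of transcription in whose span *Gm43713* lies on the opposite strand, had 96.7, 137, 117 and 88.7 CPM in Wt F1, F2, M1 and M2 and 237, 170, 160 and 304 CPM in *Ifnar1*-/- F1, F2, M1 and M2. The genotypes did not overlap, but 1 UMI equals 118 CPM in *Ifnar1*-/- F1, and 1 UMI fewer there would bring overlap. The gene missed the threshold (log2 fold change 1.01, SE 0.35, adjusted p = 0.976, unadjusted p = 0.00681, edgeR). Whether the counting separated the strands is not given in the sources used here, and without that the reads of these 2 genes cannot be told apart. With a looser gate *Gon4l* passed at 1.21 (adjusted p = 0.000583).

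Next in order of p stood *Gm26848* and *Ppargc1a*, named after their values were seen. *Gm26848* had 870, 1214, 1126 and 1120 CPM in the Wt and 1892, 1904, 2011 and 1914 CPM in the *Ifnar1*-/- libraries, without overlap (0.81, SE 0.19, adjusted p = 0.125, edgeR). It passed with DESeq2 (adjusted p = 0.0267), limma voom (0.00405), edgeR without TMM scaling (0.0325), the looser gate (0.00386) and without *Ifnar1*-/- F1 (0.0385). In the other glutamatergic nuclei it stood at 1266 to 1529 CPM in Wt and 2020 to 2160 CPM in *Ifnar1*-/-. *Ppargc1a*, a coactivator of mitochondrial biogenesis, had 188, 137, 375 and 283 CPM in the Wt and 118, 79.3, 122 and 98.7 CPM in the *Ifnar1*-/- libraries, again without overlap (-1.35, SE 0.32, adjusted p = 0.125, edgeR). The value of *Ifnar1*-/- F1 was 1 UMI, and 1 UMI more there would bring overlap. In the other glutamatergic nuclei *Ppargc1a* had 58.6 to 66.2 CPM in Wt and 63.4 to 74.7 CPM in *Ifnar1*-/-. The difference between the 2 effects was -1.32 (SE 0.35, adjusted p = 0.586, unadjusted p = 0.000147, edgeR). With a looser gate the *Ppargc1a* value was -0.16.

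**Figure D4:**
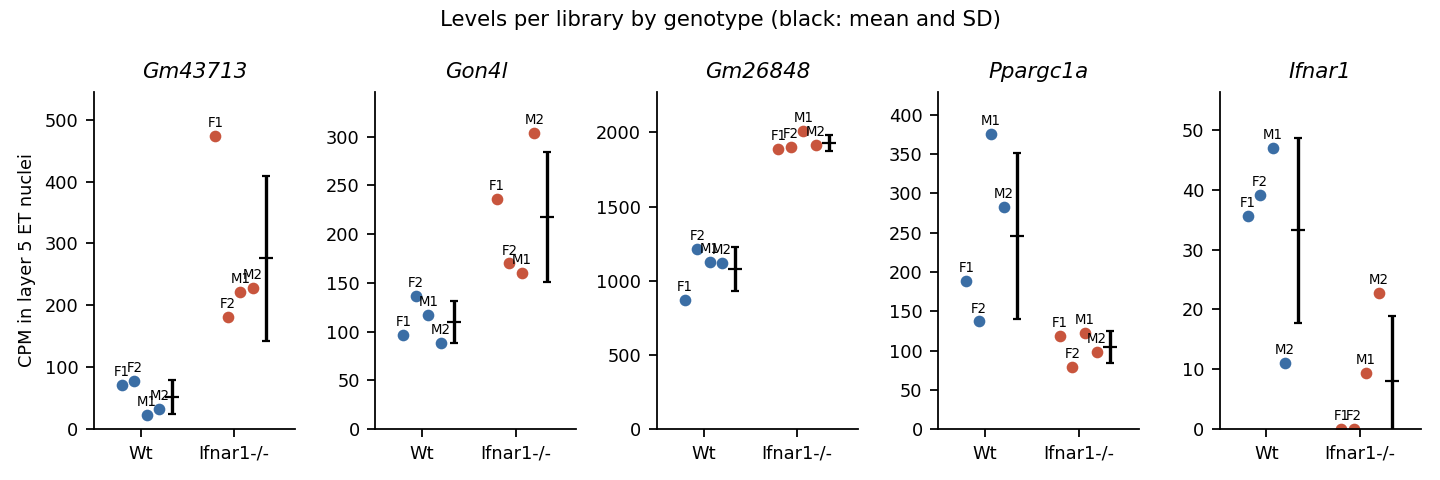
CPM in layer 5 ET nuclei of each library (points labelled F1, F2, M1 and M2, linear axis from 0, black bar with whiskers for the mean and SD of 4 mice) by genotype for 5 genes. *Gm43713* and *Gon4l* are higher in all 4 *Ifnar1*-/- libraries and *Ppargc1a* is lower in all 4, while *Ifnar1* rests on 0 to 7 UMIs per library. In *Ifnar1*-/- F1 1 UMI equals 118 CPM, so for *Gon4l* and *Ppargc1a* the separation there rests on 1 UMI.

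In the lists of pathways, channels, receptors and cell type markers 0 genes passed between genotypes. A further list of 20 genes had been chosen in an earlier analysis because they differed between the genotypes in broad cell classes of these same samples, so its direction is not independent evidence. Of its 3 genes that could be tested in ET nuclei *Gm43713* was called, and *Gon4l* and *Esrrg* (0.22, adjusted p = 1.00, edgeR) were not. The list summed to 539.6 to 900.7 CPM in Wt and 946.6 to 1269.2 CPM in *Ifnar1*-/- ET nuclei, without overlap, and to 639.7 to 695.8 and 830.5 to 874.3 CPM in the other glutamatergic nuclei. In ET nuclei the means of the sum differed by 320.5 CPM. *Gm43713* rose from a mean of 51.6 CPM in Wt to 276 CPM in *Ifnar1*-/-, and *Gon4l* from 110 to 218 CPM. The sum thus restates these genes and does not show a shift of the remaining ones.

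All 9 tested mitochondrially encoded genes lay above 0, with a median log2 fold change of 0.64 against -0.01 over all genes tested, but 0 of 9 passed. *mt-Atp6*, a subunit of ATP synthase, had 198, 274, 610 and 494 CPM in the Wt and 946, 272, 570 and 1246 CPM in the *Ifnar1*-/- libraries, which overlap (0.75, SE 0.31, unadjusted p = 0.0221, adjusted p = 1.00, edgeR). The summed level of the 13 mitochondrially encoded genes ran from 1139.6 to 3495.8 CPM in Wt and from 1337.1 to 9460.7 CPM in *Ifnar1*-/-, the highest being the library with 1 nucleus. *Ifnar1*-/- M2 had the highest *mt-Atp6* level among the other glutamatergic nuclei too, at 1862 CPM against 205 to 632 CPM in the other *Ifnar1*-/- libraries and 272 to 880 CPM in Wt, where the summed level of the 13 genes ran from 1231.2 to 7933.9 CPM in *Ifnar1*-/- and from 1494.9 to 4697.9 CPM in Wt. Over 21 alternative settings, among them leaving out *Ifnar1*-/- M2, the *mt-Atp6* log2 fold change in ET nuclei ran from 0.39 to 1.36. It was called in none of them. The part of that library in the summed ET level was not tested. The share of the 13 genes was 0.162% of UMIs in the median Wt and 0.317% in the median *Ifnar1*-/- ET nucleus. Against the other glutamatergic nuclei 5 of the 13 mitochondrially encoded genes were called lower and 0 higher, with a median of -0.24 relative to the median gene. Of all genes tested there 9.17% were lower. Of the 77 nuclear genes of oxidative phosphorylation tested in that comparison 1 was lower and 0 higher. Between genotypes 3 of the nuclear genes could be tested, with 0 called.

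Most genes of the type I interferon pathway had few UMIs in ET nuclei. Of its 45 genes in the files 18 had 0 UMIs, among them the interferon-stimulated genes *Irf7*, *Isg15*, *Ifit1*, *Ifit3*, *Mx1* and *Rsad2*. Against the other glutamatergic nuclei 0 of 19 tested were called and the median was 0.01. *Jak1*, a kinase bound to the receptor, had 75 UMIs in 41 of the 56 nuclei, the kinase *Tyk2* 27 and the receptor subunit *Ifnar1* 18. Between genotypes 1 gene of the list could be tested, the RNA-editing enzyme *Adar* (-0.22), which was not called. The summed level was 394 to 610 CPM in Wt and 295 to 591 CPM in *Ifnar1*-/-.

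The ET markers themselves did not pass between genotypes either. Of 9 tested 0 were called, with a median of -0.09, and their summed level was 4615 ± 1048 CPM in Wt and 4306 ± 706 CPM in *Ifnar1*-/- (SD, n = 4 each). *Vat1l* had the smallest p of the list, at 219, 176, 0 and 166 CPM in the Wt and 0, 136, 75.3 and 38.0 CPM in the *Ifnar1*-/- libraries (-0.91, SE 0.44, unadjusted p = 0.0489, adjusted p = 1.00, edgeR), and with a looser gate its value was 0.08. *Kcnn2* had 813 ± 111 CPM in Wt and 830 ± 373 in *Ifnar1*-/- (SD, n = 4 each), and *Robo1* 1975 ± 351 and 2269 ± 439, both within the spread between mice. Of 17 channel, 15 guidance, 14 glutamate receptor and 9 neurofilament and transport genes tested, 0 passed.

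The genotype effect was compared between ET and the other glutamatergic nuclei and between the sexes. For 0 of 13783 genes did it differ between the cell classes at an adjusted p of 0.05 by edgeR, with 630 at an unadjusted p under 0.05, and 0 in DESeq2 with 122. For 0 of 2007 genes did it differ between females and males in edgeR, with 70 at an unadjusted p under 0.05.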

How the data were processed

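The authors aligned Single Cell 3' v3 reads with Cell Ranger 3.1.0 to mm10 (GRCm38) with unspliced transcripts counted, and deposited raw UMI counts of 31053 genes per barcode, not normalized, for the 4499 to 10249 barcodes per library called as nuclei, without the study's further filters. Nuclei were filtered at the limits that the study states, and the gate of the opening was applied to raw UMIs. The gate, the members and the gene lists were chosen with earlier results of these data known. UMIs of the chosen nuclei were summed per mouse and tested with edgeR 4.0.16 (R 4.3.3; TMM, filterByExpr at a minimum count of 10, robust quasi-likelihood test, two-sided, Benjamini-Hochberg over all genes tested except the 11 gate genes). Genotype was fitted with sex as a covariate, and cell classes with the library as a block. SE is the log2 fold change divided by the root of F. Shares were compared with exact permutation tests. DESeq2 1.42.0, limma 3.58.1, other filters, gates and left-out libraries were tried as alternatives. Named genes were all genes called between genotypes, *Ifnar1*, and, of genes called against the other glutamatergic nuclei with at least 20 CPM in ET nuclei, the 12 highest and 8 lowest, with the listed genes. The test was checked on simulated counts. Coordinates are those of GENCODE vM21 (GRCm38). Scrublet was run through scanpy 1.11.5, and doublets were kept in the main comparison. Some genes of the lists are counted in them and not reported by name here.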

Additional observations from a re-analysis of the deposited data

Results flagged for a closer look

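In 1 of 16 groups of 4 libraries examined for a library far from the others, the highest one stood apart by more than chance allows in about 1 of 20 such groups. It was *Gm43713* in *Ifnar1*-/- ET nuclei, where *Ifnar1*-/- F1 had 473 CPM and the other 3 libraries 181, 221 and 228 CPM. That library held 1 ET nucleus and 4 UMIs of the gene, and without it the log2 fold change was 2.08 (adjusted p = 0.0219, edgeR's quasi-likelihood test).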

How the results depend on the processing

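The count of genes called between genotypes (1) was 2 with DESeq2, without TMM scaling, with no upper limit on genes per nucleus and with limma voom, 3 with the looser gate, and 0 with no filter on low counts, with a stricter filter, in females alone, in males alone and in the libraries with 9 or more ET nuclei. It ran from 0 to 5 as each library was left out. With the replicate number as a block in place of sex it was 5, of which *Gm43713* was 1. The deviations of same-numbered libraries correlated at 0.047, 0.103, 0.128 and 0.061, so the numbers were not taken to pair the mice.

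Against the other glutamatergic nuclei 1617 genes were called, and 862 with DESeq2 (339 higher, 523 lower), 242 with the stricter gate, 3000 with the looser gate and 2545 with voom (1652 higher, 893 lower). Among genes with at least 20 UMIs observed or expected in ET nuclei 428 were higher and 662 lower. Limited to nuclei over 10000 UMIs in both sets 1416 were called, 1327 of them shared with the 1617, and leaving out each library gave 1126 to 1570. The difference of the genotype effect between cell classes gave 1 call without TMM scaling and with no upper limit on genes, 2 in nuclei over 10000 UMIs, 6 with the looser gate (*Cst3*, *Nrg1*, *C1qb*, *Pdzrn3*, *Ctss* and *Trpm3*, of which *Cst3*, *C1qb* and *Ctss* are known from microglia) and 0 to 1 as each library was left out.

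The share of ET nuclei, 0.00156 points higher in *Ifnar1*-/-, was 0.0395 with nuclei thinned to 8000 UMIs, -0.0079 without doublets, -0.0039 with the stricter gate and -0.0657 with the looser gate. Leaving out each library gave -0.0593 to 0.0804. Of single genes, *Vat1l* between genotypes reversed with the looser gate (0.0803), *Nefh* (-7.49) and *Unc5b* (-7.60) with the stricter gate, which leaves 8 nuclei, and *Kif5c* (0.0854), *Cacna1a* (0.14), *Cacna1d* (0.0583), *Kcnq3* (0.0399) and *Grm7* (0.0634) with no filter, where the median gene moved to -0.63. The no-filter values are relative to that median gene, and before it is subtracted they stayed negative, as in the main fit. The cause of the changes with the looser and the stricter gate was not tested. Of 69 named genes called against the other glutamatergic nuclei 16 lost the call with 1 library left out, and 29 kept it in every alternative. With the stricter gate 37 of the 69 lost the call or changed direction.

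Few nuclei set the limit here. The stricter gate left 8 nuclei in 4 libraries, so the genotype tests were not run with it. The alternatives on 20 UMIs, voom and 9 or more nuclei were added after seeing the data.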

Other observations

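Lists of other telencephalic neurons were also followed in ET nuclei. Of 4 tested striatal projection neuron markers 1 was lower against the other glutamatergic nuclei, the dopamine receptor *Drd1*, which had 0 UMIs, and 0 were higher. *Rarb*, a retinoic acid receptor on that list, had 38 UMIs in 21 nuclei and was higher against IT-gated nuclei (log2 fold change 1.16, adjusted p = 0.00279) and CT-gated nuclei (1.33, adjusted p = 0.000497, edgeR's quasi-likelihood test). Of 4 tested markers of hippocampal CA1 neurons 1 was lower, the zinc finger factor *Zbtb20* (-1.39, SE 0.24), and 0 were higher.

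*4933407E24Rik*, a lincRNA that begins at 124569190 and ends at 124574645 on chromosome 4 within the span of *Gm2164*, was also higher in ET nuclei, by a log2 fold change of 2.87 on 18 UMIs. *Gm26883*, which lies within the span of the gate gene *Tshz2*, was lower by a log2 fold change of -4.08. Of the genes called against the other glutamatergic nuclei, 5 lay within 100 kb of a gate gene.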
